A study of Mus musculus with 23 samples.

Results

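The extracellular signal-regulated kinase (ERK) feedback genes followed here were Dusp1, Dusp2, Dusp4, Dusp5 and Dusp6, Spry1, Spry2 and Spry4, and Egr1 and Egr2. They were listed by name as genes that ERK signalling is known to switch on, with earlier results of these arrays known, and no measured value enters the rule. Each was read from the probe whose accession carries its symbol. The 10 genes are 10 of 20145 genes with a symbol on the array, and each has 1 probe. Of these, 9 were among the 15203 genes tested, which required a normalized log2 intensity of 6.5 or more on some array. Spry4 did not reach that level on any array, and Dusp5 reached it only on an additional array that was left out of the fit.

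ERK is the last kinase of the RAS, RAF and MEK cascade that growth factor and cytokine receptors start. DUSP proteins are dual-specificity phosphatases that take phosphate off MAP kinases, Dusp6 being a cytoplasmic phosphatase selective for ERK and Dusp1, Dusp2, Dusp4 and Dusp5 nuclear ones. Sprouty proteins dampen the signal between the receptor and RAF, and EGR1 and EGR2 are zinc finger transcription factors made within minutes of a stimulus. All 3 families are transcribed in response to the pathway, so their transcripts are widely read as its output, although other signals such as cellular stress also induce several of them.

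The cells came from 1 mouse embryonic stem (ES) cell line, labelled as strain C57BL/6, which carries human RUNX1-ETO, the fusion gene of t(8;21) acute myeloid leukaemia, behind a doxycycline (Dox)-responsive promoter with both Runx1 alleles left wild type. Without Dox the same line served as the control. Flk1+ cells were put into blast culture, Dox was given at 0.1 μg per ml on day 1, and on day 2 cells were sorted into haemogenic endothelium (HE, KIT+Tie2+CD41-), HE2 (KIT+Tie2+CD41+) and progenitors (KIT+Tie2-CD41+). Myeloid progenitors were grown from uninduced day 2 progenitors in medium with stem cell factor, FLT3 ligand and thrombopoietin and were harvested on day 3, with Dox for the 12 h of culture or without it. The length of induction, the medium and the stage therefore changed together between the sorted cells and the myeloid progenitors. HE, HE2 and myeloid progenitors had 3 arrays with and 3 without Dox, and progenitors had 2 of each. Most titles call the arrays biological replicates, and since all cells descend from 1 ES line, P values measure the spread between samples of this line only.

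Each array gave 1 colour, with 48.8 to 78.4% of its spots well above background, and 0 saturated spots were seen for the members. The 23 arrays lay on 3 slides. All 6 myeloid progenitor arrays, induced progenitor array 2 and the additional uninduced progenitor array shared slide 3 and the later of 2 scan days. The HE and HE2 arrays and the other progenitor arrays lay on slides 1 and 2, where HE and HE2 had induced and uninduced arrays on each. The probe for mouse Runx1t1, the gene of the ETO part, was higher with Dox at every stage, by 1.24 to 3.97 on the log2 scale, and passed the test in 3 of 4 comparisons, with HE at an adjusted P of 0.0155. Whether this probe binds the human transgene was not tested.

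The promoters of 4 members whose changes were called are shown, of which Dusp2 and Spry2 rose in the same comparison. RefSeq promoter windows of GRCm38.p6, from 250 bases before to 50 bases after an annotated start, were on hand for 7 of 10 members, and Dusp4, Egr1 and Spry4 were not among them. Egr2 has 5 such windows, of which 1 is printed. Capitals mark matches on either strand to the RUNX motif (TGTGGT or TGCGGT), the ETS motif (GGAAGT), the cyclic AMP response element (CRE, TGACGTCA) or its core TGACG, which overlaps it, the EGR motif (GCGNGGGCG) and the CArG box bound by serum response factor.

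Dusp2, chr2:127335909-127336208, plus strand: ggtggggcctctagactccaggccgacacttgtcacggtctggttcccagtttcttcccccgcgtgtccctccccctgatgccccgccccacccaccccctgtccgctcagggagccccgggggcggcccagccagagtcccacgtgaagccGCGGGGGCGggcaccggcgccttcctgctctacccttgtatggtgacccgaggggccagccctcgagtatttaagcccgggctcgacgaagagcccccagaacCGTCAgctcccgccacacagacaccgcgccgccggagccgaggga
Spry2, chr14:105896770-105897069, minus strand: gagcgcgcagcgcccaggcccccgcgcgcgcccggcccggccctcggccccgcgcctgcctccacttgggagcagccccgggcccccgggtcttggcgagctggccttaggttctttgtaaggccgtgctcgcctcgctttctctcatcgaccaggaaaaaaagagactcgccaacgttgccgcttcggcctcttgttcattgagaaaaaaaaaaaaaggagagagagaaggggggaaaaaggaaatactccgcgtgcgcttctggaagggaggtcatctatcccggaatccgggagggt
Egr2, chr10:67537619-67537918, plus strand: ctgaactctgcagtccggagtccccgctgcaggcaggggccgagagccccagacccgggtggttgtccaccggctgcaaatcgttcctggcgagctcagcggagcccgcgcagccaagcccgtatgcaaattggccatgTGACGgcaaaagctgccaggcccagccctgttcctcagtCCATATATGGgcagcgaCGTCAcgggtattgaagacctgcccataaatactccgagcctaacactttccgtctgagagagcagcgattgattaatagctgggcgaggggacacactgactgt
Spry1, chr3:37639697-37639996, plus strand: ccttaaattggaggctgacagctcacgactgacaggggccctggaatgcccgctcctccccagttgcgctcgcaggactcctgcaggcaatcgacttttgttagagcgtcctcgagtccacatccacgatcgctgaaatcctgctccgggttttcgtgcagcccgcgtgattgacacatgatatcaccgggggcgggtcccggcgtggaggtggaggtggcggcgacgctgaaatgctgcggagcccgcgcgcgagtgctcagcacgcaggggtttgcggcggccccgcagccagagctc

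The Dusp2 window held 1 EGR match beginning before the start, at position -98, and a CRE core beginning at position 6 after it. The EGR motif was present in 5.56% of 32817 windows of this length across the genome, and the CRE core in 20.8%. The Egr2 window held a CArG box at position -72, between 2 CRE cores at positions -111 and -55, and 1.63% of all windows held a CArG box. Dusp5 carried 2 CArG boxes in a row, at positions -82 and -72, and Dusp1 carried the only whole CRE in the 11 windows searched, at position -143, where 1.79% of all windows have one. The windows of Spry1, Spry2 and Dusp6 held no match to any of these letters. The RUNX motif, found in 22.4% of all windows, was matched in 1 of the 11 windows of the members, at another annotated start of Egr2, and the ETS motif, in 23.8% of all windows, in that of Dusp5. These are matches of letters and not measured binding.

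**Figure D1:**
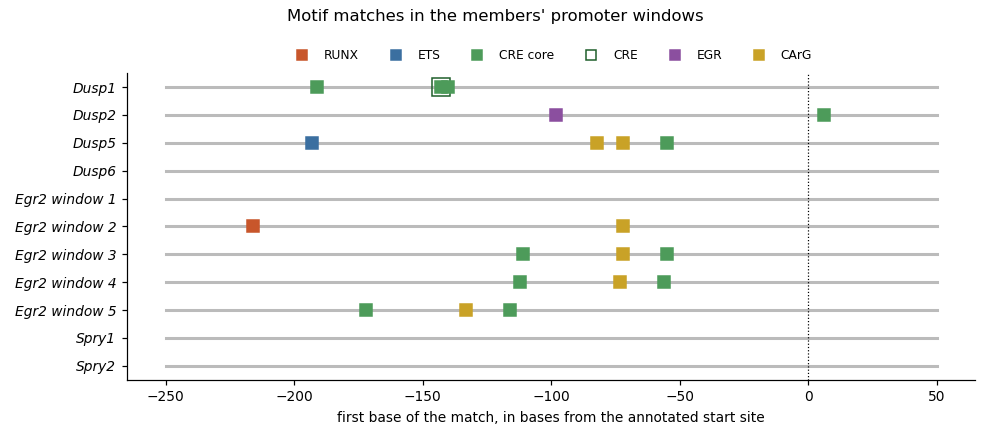
Matches to 6 motifs in the 11 annotated promoter windows of 7 members, with the first base of each match plotted by its distance in bases from the annotated start site. Egr2 has 5 windows, of which windows 3 to 5 overlap, and Dusp6, Spry1, Spry2 and Egr2 window 1 hold no match.

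Throughout, a gene was called changed where limma gave it an unadjusted P no higher than 0.001 together with a 2-fold or larger change, and values are normalized log2 intensities, in which a difference of 1 is 2-fold. The RNA came from bulk populations, in which fewer cells of a type and less RNA per cell cannot be told apart.

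Of the 4 comparisons with Dox, that in myeloid progenitors had the most called members. Dusp2, Dusp4 and Spry2 rose, 3 of 9 tested members, and 0 of 9 fell, where 5.12% of all genes tested rose and 1.18% fell. The median change over the 9 members was 0.26, against -0.02 over all genes, and 6 of 9 were higher, where 47.9% of all genes were. In HE and in progenitors 6 of 9 were higher as well, with 0 called.

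Dusp2, an inducible nuclear phosphatase found mainly in blood cells, read 14.06, 13.72 and 13.74 on the uninduced arrays and 15.81, 15.75 and 15.77 on the induced ones. All induced arrays lay above all uninduced ones and within a span far narrower than the change. The rise was 1.94 ± 0.15 (SE) on the log2 scale, 3.83-fold, with an adjusted P of 1.37e-07. Dusp4, a nuclear phosphatase of ERK and other MAP kinases, read 8.11, 8.69 and 8.77 without and 9.45, 10.25 and 9.93 with Dox. The groups did not overlap, and induced array 1 was the nearest to the uninduced ones. Its rise was 1.36 ± 0.25, 2.56-fold, with an adjusted P of 0.00103. Spry2, a Sprouty protein that restrains receptor signalling to ERK, read 7.85, 7.90 and 7.52 without and 9.72, 9.27 and 9.52 with Dox, again with no overlap. It rose by 1.74 ± 0.20, 3.35-fold, with an adjusted P of 1.02e-05. All myeloid progenitor arrays were on 1 slide, so that these 3 changes are within-slide values.

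The other members did not follow them. Dusp1, the stress- and growth factor-induced nuclear phosphatase, read 8.73, 9.25 and 9.85 without and 8.75, 10.01 and 9.15 with Dox, and the groups covered the same range. Dusp6, the ERK-selective cytoplasmic phosphatase, differed by -0.09 ± 0.28, and Egr2 by 0.26 ± 0.30, both with overlapping groups. Spry1, another Sprouty gene, read 10.27, 10.42 and 10.38 without and 9.64, 9.86 and 9.95 with Dox. Its induced arrays all lay lower, the opposite side to Spry2, and the difference of -0.54 ± 0.30 missed the test at an adjusted P of 0.282. Egr1 spread widely with Dox, at 11.37, 12.58 and 10.99 against 10.87, 10.44 and 11.53, and its difference of 0.70 ± 0.38 missed the test at an adjusted P of 0.265.

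**Figure D2:**
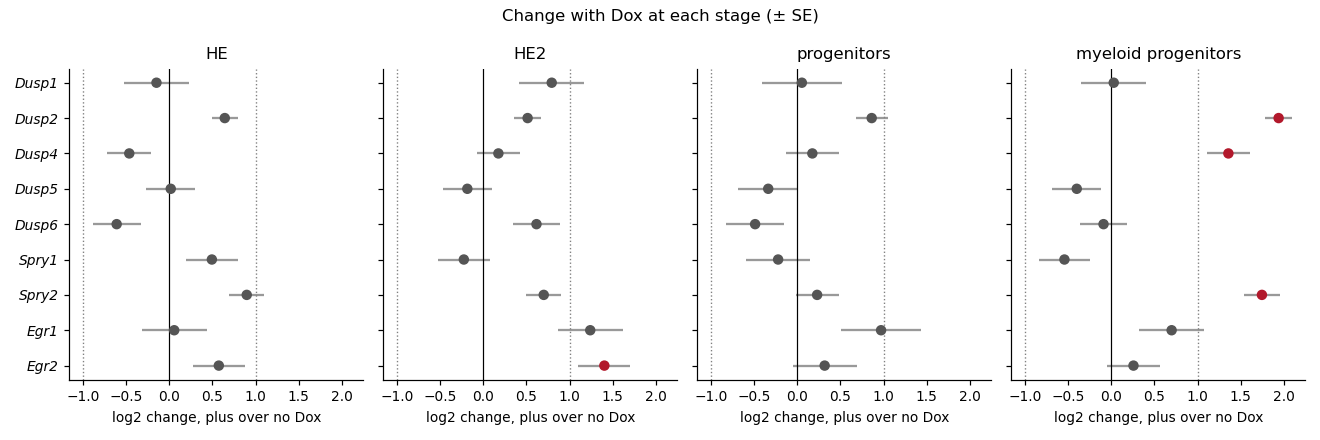
Log2 change of 9 members with Dox at each of the 4 stages, as points with bars of ± 1 standard error from the limma fit. Red points were called changed, and dotted lines mark 2-fold. Dusp2, Dusp4 and Spry2 in myeloid progenitors, at 1.94, 1.36 and 1.74, and Egr2 in HE2, at 1.40, are the called changes.

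Other genes also moved with Dox in these cells. Of 6 endothelial markers, 5 rose (Cdh5, Tek, Kdr, Emcn and Esam), with a median of 2.19 over the list, and the mean level of the list went from 9.70 to 10.42 on uninduced arrays to 12.01 to 12.38 on induced ones. All 6 were well above background on every uninduced array. Of 6 myeloid markers, 0 passed the test, and the mean level of that list was 10.25 to 10.78 without and 9.69 to 9.97 with Dox. Of 6 measured stress genes, Hspa1a, a heat shock gene whose near-identical neighbour Hspa1b cannot be separated from it, rose by 2.60 ± 0.47, and the list's mean level went from 11.04 to 11.21 to 11.77 to 11.87. Of 5 tested cardiac and smooth muscle markers 1 rose, and of 5 mesenchymal markers 1 fell. The part of these genes in the rises of Dusp2, Dusp4 and Spry2 was not tested.

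In HE2 cells with Dox, 1 of 9 members rose, against 5.11% of all genes tested, and 0 fell, against 2.07%. The one called was Egr2, a transcription factor of the early response, at 6.00, 5.69 and 6.44 without and 6.86, 7.59 and 7.89 with Dox. The groups did not overlap, but induced array 1 lay only just above uninduced array 3. The rise was 1.40 ± 0.30, 2.64-fold, with an adjusted P of 0.00316, and the differences within slides 1 and 2 were 1.01 and 1.30. This call depended on which arrays were kept, and it held without uninduced array 3 (1.60) or induced array 1 (1.70). It was lost without uninduced array 1 (1.38), uninduced array 2 (1.23), induced array 2 (1.33) or induced array 3 (1.18), each with the same direction, and in a fit of HE2 alone (unadjusted P of 0.00269).

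Several other members stood higher in induced HE2 without being called. Egr1 read 10.87, 10.94 and 11.43 without and 11.79, 12.34 and 12.82 with Dox, with no overlap, and its difference of 1.24 ± 0.38 was over 2-fold with an adjusted P of 0.0292. Spry2 differed by 0.70 ± 0.20 and Dusp2 by 0.51 ± 0.15, with adjusted P values of 0.0234 and 0.0258. Dusp1 differed by 0.79 ± 0.38 and Dusp6 by 0.62 ± 0.28. In these 5 genes every induced array was above every uninduced one, while Dusp4, Dusp5 and Spry1 overlapped between the groups. How many of all genes separate in this way was not counted, so this only describes the genes named. The median over the 9 members was 0.62, against -0.03 over all genes, and 4 of 9 had an adjusted P of at most 0.05.

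Stress genes were also higher in these HE2 arrays. Hspa1a rose by 2.46 ± 0.47 and Zfp36, which encodes an mRNA decay factor of the early response, by 1.33 ± 0.21. The mean level of the 6 measured stress genes was 11.18 to 11.31 without and 12.02 to 12.66 with Dox. Of 6 endothelial markers 2 rose, Emcn and Esam, and of 6 myeloid markers 3 fell. Of 5 tested cardiac and smooth muscle markers 3 fell (Acta2, Actc1 and Tagln), and of 5 mesenchymal markers 2 fell (Col1a1 and Pdgfrb), the mean level of that list being 8.33 to 9.14 without and 7.03 to 7.64 with Dox. The part of these genes in the levels of Egr1, Egr2 and Dusp1 was not tested.

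In HE cells 0 of 9 members were called with Dox, where 4.70% of all genes tested rose and 2.39% fell. Dusp2, Dusp6 and Spry2, 3 of 9, had an unadjusted P under 0.05. The share of all genes under that looser limit was not counted, so whether 3 of 9 is more than usual is open. Spry2 read 9.26, 9.40 and 8.75 without and 10.22, 10.14 and 9.74 with Dox. Every induced array was higher, by 0.90 ± 0.20 on average, 1.86-fold with an adjusted P of 0.00486, and by 0.89 and 1.19 within slides 1 and 2. It was over 2-fold and called without uninduced array 2 (1.03) or induced array 3 (1.04). Dusp2 read 14.44, 14.37 and 14.29 without and 15.01, 15.11 and 14.90 with Dox. The groups did not overlap, and the difference was 0.64 ± 0.15, with an adjusted P of 0.00659 and within-slide values of 0.61 and 0.72. Of the stress genes, Hspa1a rose here too, by 2.38 ± 0.47. Of 6 haematopoietic markers 1 fell, of 5 mesenchymal markers 2 fell and 1 rose, and of 5 tested cardiac and smooth muscle markers 1 fell and 1 rose. Of 6 endothelial and 6 myeloid markers 0 were called. The part of these genes was not tested.

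Dusp6 lay on opposite sides in HE and HE2. In HE it read 13.50, 13.27 and 12.88 without and 12.85, 12.79 and 12.19 with Dox, all induced arrays being lower, and in HE2 12.64, 12.41 and 11.68 without and 13.02, 12.76 and 12.80 with Dox, all being higher. The within-slide differences were -0.54 and -0.39 in HE and 0.50 and 1.1 in HE2. Neither difference was called, and the difference between them, 1.22 ± 0.39, had an unadjusted P of 0.00597 and an adjusted P of 0.206. With slide as a block the same difference had an unadjusted P of 0.000149 and was called. For this comparison of the responses in HE2 and HE, 0 of 9 members were called in the main fit, against 1.35% of all genes.

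In progenitors 0 of 9 members were called with Dox, where 3.05% of all genes tested rose and 0.704% fell. Of the 9 members 2 had an unadjusted P under 0.05, a limit for which all genes were not counted. Dusp2 read 14.34 and 14.65 without and 15.18 and 15.54 with Dox. Both induced arrays were higher, by 0.86 ± 0.19, 1.82-fold with an adjusted P of 0.00865, and the difference was 0.84 on slide 1. On slide 3, against the additional uninduced array at 14.68, it was 0.86. Leaving out uninduced array 2 or induced array 1 took it over 2-fold and to a call, at 1.02 and 1.05. Egr1 read 11.79 and 12.44 without and 12.80 and 13.37 with Dox, a difference of 0.97 ± 0.46 with an adjusted P of 0.248. For Dusp1 the arrays of slide 1 were the high ones in both groups, at 12.06 and 12.13, and the others read 10.83 and 10.87. Markers moved with Dox here as well. Of 6 endothelial markers 2 rose, with a median of 1.59 over the list, and of 6 myeloid markers 2 fell, with a median of -1.12. Of 5 tested cardiac and smooth muscle markers 1 rose. Of 6 measured stress genes 0 were called, with a median of 0.15 over the list. Hspa1a averaged 7.43 without and 7.48 with Dox, its induced arrays reading 6.71 and 8.26. The part of these genes in the levels of the members was not tested. The responses in progenitors and HE2 differed in 0 of 9 members, against 0.638% of all genes.

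The myeloid progenitor response was tested against those of progenitors and of HE, and Dusp2 alone differed from both. Against progenitors, 2 of 9 members had a larger rise, where 1.50% of all genes differed in either direction. The response of Spry2 was larger by 1.51 ± 0.32, with an adjusted P of 0.0244, and that of Dusp2 by 1.08 ± 0.24, with an adjusted P of 0.0327. That of Dusp4 differed by 1.18 ± 0.40, which missed the test at an adjusted P of 0.196. Against HE, 2 of 9 members had a larger rise, where 4.71% of all genes differed. There the response of Dusp4 was larger by 1.82 ± 0.36, with an adjusted P of 0.00341, and that of Dusp2 by 1.29 ± 0.22, with an adjusted P of 0.000959. That of Spry2 differed by 0.85 ± 0.29, which missed the test at an adjusted P of 0.0978. Dusp4 differed in sign between the stages, at -0.46 ± 0.25 in HE, where the groups overlapped, and 1.36 in myeloid progenitors. The response of Spry1 in myeloid progenitors minus that in HE was -1.03 ± 0.42, which missed the test at an adjusted P of 0.198 and passed it without uninduced HE array 1 (-1.46). Both comparisons use the same 6 myeloid progenitor arrays, and 12 h of induction in expansion medium stands against 1 day in blast culture.

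The calls against progenitors were lost under several alternatives. That of Dusp2 was lost without uninduced myeloid progenitor array 2 (1.02) or 3 (1.03), uninduced progenitor array 2 (0.92) or induced progenitor array 1 (0.89). That of Spry2 was lost without uninduced progenitor array 1 (1.36) or induced progenitor array 2 (1.48). With each array scaled to its 75th percentile both calls were lost, at 1.18 and 1.40, and so were that of Dusp2 in a fit of only these groups (1.08) and that of Spry2 with scan date as a block (1.48). The calls of Dusp2 and Dusp4 against HE held in all 26 alternatives.

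**Figure D3:**
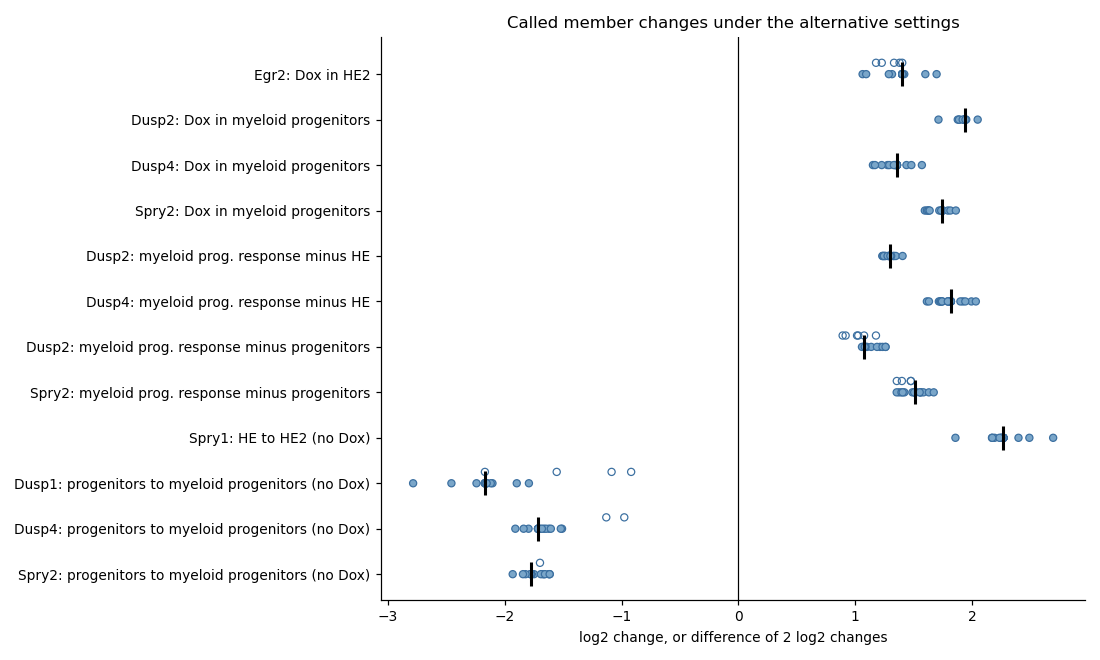
The 12 called changes of members (black bars) and the same changes under each alternative setting (circles), on the log2 scale. Filled circles passed the test of that setting and open circles, drawn just above them, did not, and no circle lies on the other side of 0 from its bar.

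Between stages without Dox, the question was how these genes move in normal differentiation. From HE to HE2, 1 of 9 members rose, against 2.40% of all genes, and 0 fell, against 2.64%. Spry1 read 9.65, 8.77 and 7.98 in HE and 11.13, 11.26 and 10.81 in HE2. All HE2 arrays were higher, while the HE arrays were spread over a range wider than that of any other group of this gene. The rise was 2.27 ± 0.30, 4.82-fold, with an adjusted P of 7.90e-05, at 1.99 within slide 1 and 2.83 within slide 2. Of 6 haematopoietic markers 2 rose at this step and of 6 myeloid markers 3, while 1 of 6 endothelial and 1 of 5 mesenchymal markers fell, and their part in the rise of Spry1 was not tested. Induced HE and HE2 cells kept the same order, at 9.29 ± 0.39 and 10.84 ± 0.13 (SD, n = 3 each).

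Of the 5 Dusp members 0 were called at this step. Dusp6 and Dusp4 were lower in HE2, with changes of -0.98 ± 0.28 and -0.88 ± 0.25, each with no overlap and under 2-fold, at adjusted P values of 0.0295 and 0.0307. Dusp2 was higher by 0.62 ± 0.15, with an adjusted P of 0.0122. From HE2 to progenitors 0 of 9 members were called, against 1.76% of all genes that rose and 3.64% that fell. Of the 9 members 4 had an unadjusted P under 0.05 at this step, again without a count over all genes. Egr1 was the only member over 2-fold there, at 1.04 ± 0.42, with an adjusted P of 0.174.

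From progenitors to myeloid progenitors 3 of 9 members fell, Dusp1, Dusp4 and Spry2, against 6.83% of all genes, and 0 rose, against 7.09%. Dusp1 read 12.06 and 10.83 in progenitors and 8.73, 9.25 and 9.85 in myeloid progenitors, a change of -2.17 ± 0.42 with an adjusted P of 0.000827. Dusp4 read 10.43 and 10.04 and then 8.11, 8.69 and 8.77, a change of -1.72 ± 0.28 with an adjusted P of 0.000184. Spry2 read 9.69 and 9.37 and then 7.85, 7.90 and 7.52, a change of -1.78 ± 0.23 with an adjusted P of 1.50e-05. The groups of all 3 genes were apart, but they were also on different slides and scan days. Other lists moved between these stages too. Of 6 measured stress genes 2 fell, Jun (14.89 to 12.71) and Zfp36 (9.30 to 8.01), of 5 tested cardiac and smooth muscle markers 2 fell and 1 rose, of 5 mesenchymal markers 2 fell, and of 6 myeloid markers 3 fell and 1 rose. Of 6 endothelial and 6 haematopoietic markers 1 each fell, Cdh5 and Kit. Their part in the 3 falls was not tested.

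The only uninduced progenitor array on the slide of the myeloid progenitors was the additional one, and against it the differences were -1.04 for Dusp1, -1.39 for Dusp4 and -1.30 for Spry2. With slide as a block the changes were -1.09 (unadjusted P of 0.141), -1.13 (0.0227) and -1.78 (0.000767), so that Spry2 alone stayed called. With scan date as a block none of the 3 was called, at -0.92, -0.98 and -1.70. In both fits the myeloid progenitors were tied to the other slides only through induced progenitor array 2, which shares their slide and scan day. The block correction at this step therefore rests on that 1 array. Over all genes tested the calls at this step went from 2116 to 574 with slide and to 587 with scan date as a block. Without uninduced progenitor array 1 the change of Dusp1 was -1.56 and was not called, nor was it in a fit of these stages alone (-2.17, unadjusted P of 0.00438). Uninduced myeloid progenitors were the lowest of the 8 groups for Dusp2, Dusp4 and Spry2, and their 3 arrays are the controls of the rises with Dox in that stage. They were also the lowest group for Dusp1 and Egr1, which were not called with Dox there. Induced Spry2 at 9.50 ± 0.22 overlapped with uninduced progenitors at 9.53 ± 0.22, while induced Dusp4 at 9.88 ± 0.40 was next below them and also overlapped (SD, n = 3 and n = 2).

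**Figure D4:**
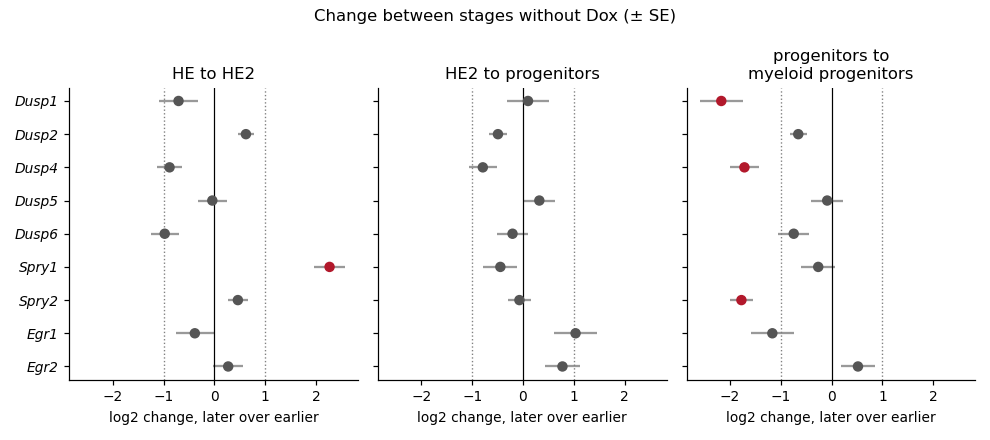
Log2 change of 9 members between successive stages without Dox, as points with bars of ± 1 standard error from the limma fit. Red points were called and dotted lines mark 2-fold. Spry1 from HE to HE2, at 2.27, and Dusp1, Dusp4 and Spry2 from progenitors to myeloid progenitors, at -2.17, -1.72 and -1.78, are the called changes.

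Ordered by level over the 8 groups, the members fell into different patterns. Dusp2 was highest in induced myeloid progenitors, at 15.78 ± 0.03, and lowest in uninduced ones, at 13.84 ± 0.19 (SD, n = 3 each). Its induced myeloid arrays did not overlap with the next group, induced HE2, and its uninduced ones did not overlap with the next above, uninduced HE. In between, induced HE2 and induced progenitors overlapped, as did induced HE and uninduced HE2, and uninduced progenitors and uninduced HE. Induced groups took 4 of the 4 highest places.

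Dusp4, Dusp6 and Dusp1 had their lowest levels in myeloid progenitors. Dusp4 was highest in uninduced HE, at 11.91 ± 0.31, and lowest in uninduced myeloid progenitors, at 8.52 ± 0.36, and only the step between induced and uninduced myeloid progenitors had no overlap of neighbours. Dusp6 went from 13.22 ± 0.31 in uninduced HE to 11.20 ± 0.16 in induced myeloid progenitors, with every neighbouring pair overlapping. Dusp1 lay between 11.35 and 12.14 in its 6 highest groups and at 9.30 ± 0.64 and 9.27 ± 0.56 in induced and uninduced myeloid progenitors, which were apart from the rest (SD, n = 3). Over the 22 arrays these 3 genes went together, with Pearson correlations of 0.88 between Dusp1 and Dusp4, 0.85 between Dusp4 and Dusp6 and 0.82 between Dusp1 and Dusp6, as a description of arrays that share stage, slide and Dox. That of Dusp2 with Spry2 was 0.76.

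Spry1 and Spry2 had different orders. Spry1 was highest in uninduced HE2, at 11.07 ± 0.23, and lowest in uninduced HE, at 8.80 ± 0.84, with no overlap of neighbours only between uninduced and induced myeloid progenitors. Spry2 was highest in induced HE2, at 10.30 ± 0.29, and its uninduced myeloid progenitors, at 7.76 ± 0.21, were apart from the next group, uninduced HE (SD, n = 3 each). Spry4 lay between 4.61 and 5.74 on all 23 arrays and was well above background on 5, 3 of them the uninduced HE arrays. In the groups where it was so on 0 arrays only a bound can be given.

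Egr1 was highest in induced progenitors, at 13.09 ± 0.40 (SD, n = 2), and lowest in uninduced myeloid progenitors, at 10.95 ± 0.55 (SD, n = 3), and every neighbouring pair of groups overlapped. Without Dox, Egr2 averaged 5.77 ± 0.40 on the HE arrays, 6.04 ± 0.38 on those of HE2, 6.82 ± 0.09 on those of progenitors and 7.34 ± 0.23 on those of myeloid progenitors (SD, n = 3, and n = 2 for progenitors), with no step called. Over the 8 groups, only the neighbours uninduced progenitors and induced HE were apart. Dusp5, a nuclear phosphatase specific for ERK, lay between 5.0 and 6.58 and was well above background on 19 of 23 arrays. Its induced arrays were all lower in progenitors and in myeloid progenitors, with differences of -0.33 ± 0.35 and -0.40 ± 0.28 that missed the test.

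**Figure D5:**
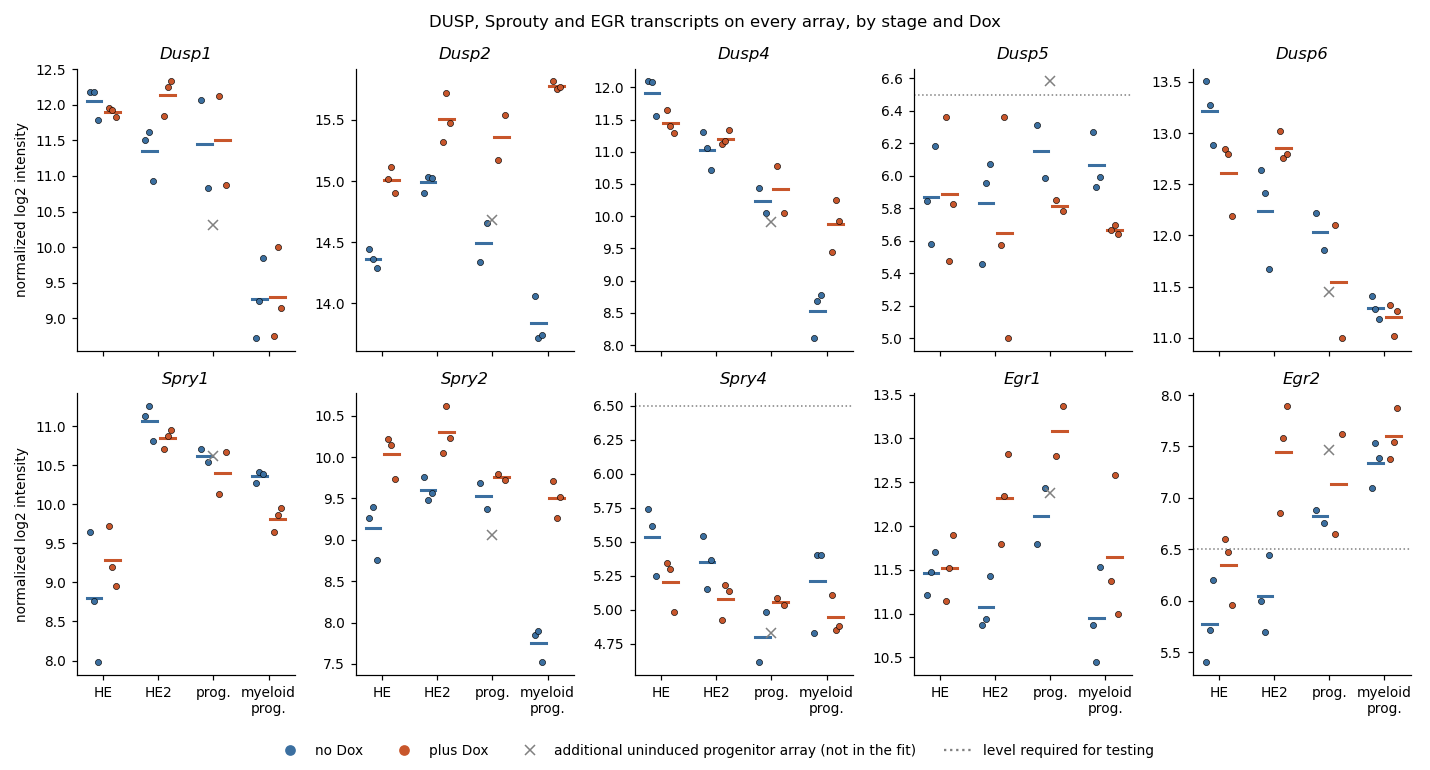
Normalized log2 intensity of the 10 members on each of the 23 arrays, by stage, with bars at the group means (n = 3, or n = 2 in progenitors) and each panel on its own scale. Dusp2 and Spry2 in uninduced myeloid progenitors, at 13.84 and 7.76, lie below all other groups, and the dotted line marks the 6.5 required for testing.

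Related genes gave few calls. Of 5 other MAP kinase phosphatases, Dusp10, which acts on JNK and p38, rose with Dox in HE2 by 1.90 ± 0.30 and in progenitors by 2.88 ± 0.36, and Dusp9, an ERK phosphatase, fell by 1.47 in HE, with adjusted P values of 0.000245, 8.2e-05 and 0.00536. Of 3 tested among 4 other Sprouty and Spred genes 0 were called with Dox at any stage. Of 4 other EGR genes and NAB co-repressors, Egr4 rose in HE2, from 5.39 to 6.47 on average and thus near the level of testing, by 1.08 ± 0.24, and 0 of the 4 were called at the other stages.

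Among 14 other genes that ERK is known to induce, Etv1, an ETS factor, rose in HE2 by 1.57 ± 0.30 and in myeloid progenitors by 1.65 ± 0.30. Phlda1 rose in myeloid progenitors by 1.15 ± 0.24. The median over the 14 was 0.04 in HE2 and 0.34 in myeloid progenitors, against -0.03 and -0.02 over all genes, and 0 of the 14 were called in HE or in progenitors. These lists were compiled with results of these arrays known, and their counts stand beside the shares of all genes given above.

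The genes most like each member over the 22 arrays, among 14921 with a value on all, were Rprm (Pearson correlation of 0.90) and Kif2a (0.89) for Dusp2, Syde1 (0.97) and Adgra2 (0.96) for Dusp4, Etl4 (0.94) and Mdfi (0.92) for Spry2, and Mmrn1 (0.85) for Spry1. For Egr2 they were Mat2b (0.91) and Cd200r1 (0.88), for Dusp1 Srebf1 (0.95) and Tiparp (0.94), and for Dusp6 Ptk2 (0.94) and Trib1 (0.94). Egr1 had no gene over 0.77, which was Vipr2, followed by Fbxl13 (0.70), and Dusp5 none over 0.78, Atp2a1, followed by Shq1 (0.76). The arrays share stage, slide and Dox, so these are descriptions.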

How the data were processed

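RNA of sorted and cultured cells was hybridised to 23 Agilent 1-colour arrays. For every spot the authors deposited its intensity with the local background and quality flags, as read by Feature Extraction and without normalization between arrays. The version is 10.7.1.1 in the submitters' processing notes and 10.7.3.1 in the file headers. The authors also deposited log2 values, corrected for background and quantile normalized, which were used as an alternative and had medians of 6.69 to 6.70. No columns were left out.

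Median intensities were corrected with normexp (offset 16) and quantile normalized over 59305 spots, leaving out 3671 control spots and then outlier flags. Spots of a probe were averaged to 55681 probes. Names came from accessions matched to the RefSeq table of GRCm38.p6 (26582 probes, 20145 genes), while the array was annotated on mm9, so the table gave names only. A gene was read from its probe with the highest mean. The fit (limma 3.58.1, functions lmFit and eBayes, under R 4.3.3) took 22 arrays with a mean for each group and left 14 residual degrees of freedom. Files were read with the data.table package, version 1.17.8. P values were adjusted over the 15203 genes by the Benjamini-Hochberg method. Differences between stages were interaction terms. The number of arrays limits the precision.

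The additional uninduced progenitor array, a technical replicate by its title and replicate 3 by its description, was normalized and not fitted. Induced myeloid progenitor array 3, a biological replicate by its title and a technical one by its source name, was kept. Uninduced HE and HE2 arrays of the same number deviated together, with correlations of 0.393, 0.796 and 0.61 over genes, so these numbers were taken to pair them. Arrays 1 and 2 of both groups lay on slide 1 and array 3 of both on slide 2. A shared slide and a shared culture therefore cannot be told apart here. From HE2 to progenitors, with 2 pairs at 0.381 and 0.199, no pairing was taken. The main fit does not use the pairing of HE with HE2, so its errors and P values from HE to HE2 are unpaired. It enters only in the alternative with replicate number as a block.

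All 10 members are named, and of the related lists the genes called with Dox. Some results on related genes are not reported here. Members and lists were chosen with earlier results of these data known. Markers of endothelial, haematopoietic, myeloid, muscle, mesenchymal and pluripotent cells and stress genes were measured alongside. The fit was tested on simulated data. Alternatives to these choices were the deposited values, intensities left without background correction or with an offset of 50, arrays scaled to their 75th percentile, a filter on spots well above background or none, probes of a gene averaged, an adjusted P of 0.05, 2-fold alone, the compared groups alone, the additional array as replicate 3, blocks by slide, scan date or replicate number, and leaving out each array.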

Additional observations from a re-analysis of the deposited data

Results flagged for a closer look

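Responses to Dox that differed between stages by a test of the difference itself were seen for 3 members. The response of myeloid progenitors was larger than that of progenitors by 1.08 for Dusp2 and by 1.51 for Spry2, and larger than that of HE by 1.29 for Dusp2 and by 1.82 for Dusp4, all on the log2 scale. The induced arrays of Dusp6 were all lower than the uninduced ones in HE and all higher in HE2, and the responses differed by 1.22, which did not pass the test of that difference.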

How the results depend on the processing

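The 3 calls with Dox in myeloid progenitors and the call of Spry1 from HE to HE2 held in all 20 alternatives each. An adjusted P of at most 0.05 called 2 members with Dox in HE, 4 in HE2 and 1 in progenitors. Of all 15203 genes tested it called 2380, 2614 and 841. From HE to HE2 it called 4 members and 1609 of all genes, and from progenitors to myeloid progenitors 5 members and 5011 of all genes. A 2-fold change alone called 2 members in HE2 and 1 from HE2 to progenitors, against 1603 and 1396 of all genes. It called 2 between the responses of HE2 and HE and 2 between those of progenitors and HE2, against 924 and 1210 of all genes. In the fit of only the groups compared, 0 were called in HE2 and 1 between the responses of myeloid progenitors and progenitors. For that last comparison 0 were called with scaling to the 75th percentile and 1 with scan date as a block. From progenitors to myeloid progenitors 1 was called with slide as a block and 0 with scan date as a block, and the cause was not tested beyond these blocks. Between the responses of HE2 and HE, slide as a block called 1, Dusp6. Leaving out 1 array gave 0 to 1 called members with Dox in HE, in HE2 and in progenitors, 3 to 3 in myeloid progenitors, 2 to 3 from progenitors to myeloid progenitors, 1 to 2 for the responses of myeloid progenitors against progenitors and 2 to 3 against HE. Where this left 1 progenitor array in a group, that array was assumed to vary like the other groups. Over the genes as a whole, the count called for Dox in progenitors ranged from 332 without uninduced array 2 to 885 without induced array 1, against 570.

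With the replicate number as a block, 3 members were called with Dox in myeloid progenitors. From HE to HE2 it called 1, in the only comparison whose numbers were taken to pair the arrays, and 1 (Dusp6) between the responses of HE2 and HE in place of 0. It changed no other call. No value of a called member changed sign in any alternative. Spot brightness limits Dusp5, Egr2 and Spry4, whose raw intensities did not pass 129, 305 and 59.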

Other observations

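Markers of other cell types were read on the same arrays. Pluripotent markers had 1 of 4 genes above the level of testing, and their mean level was 5.71 to 6.45 over all groups. The tested one, Nanog, averaged 7.27 in uninduced HE and 9.17 in uninduced myeloid progenitors, which lay on different slides, and was not called between successive stages. Cardiac and smooth muscle markers were on average at 10.60 to 11.09 in uninduced and 9.85 to 10.18 in induced HE, 9.55 to 10.60 and 8.66 to 9.01 in HE2, 8.55 to 8.90 and 8.27 to 8.97 in progenitors, and 7.32 to 7.75 and 7.95 to 8.30 in myeloid progenitors. Haematopoietic markers were at 9.25 to 9.46 and 8.61 to 9.04 in HE, 10.695 to 11.18 and 10.04 to 10.37 in HE2, 11.96 to 11.99 and 11.53 to 11.78 in progenitors, and 11.84 to 12.36 and 11.60 to 12.06 in myeloid progenitors, without and with Dox. Mesenchymal markers were at 8.71 to 10.04 and 8.73 to 9.06 in HE, 8.33 to 9.14 and 7.03 to 7.64 in HE2, 7.16 to 7.44 and 7.04 to 7.62 in progenitors, and 6.32 to 6.99 and 6.91 to 7.51 in myeloid progenitors.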
